A study of Mus musculus with 4 samples.

Results

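The mRNAs of 9 genes of neural stem cells and of the Notch pathway were followed in an m6A-seq experiment on mouse whole brain. The genes are Nes, Vim, Notch1, Notch2, Notch3, Hes1, Hes5, Jag1 and Dll1, which are 9 of 21866 protein-coding genes with an annotated coding transcript (GENCODE M21, mm10). Every m6A peak that overlapped an exon of these genes was counted, placed along the mRNA and read for its fold enrichment, the ratio of the RNA bound by the m6A antibody (IP) over the input RNA. The samples came from C57BL/6J mice of 4 weeks that carried Prrc2a flox/flox alleles, and no Cre driver is given for them in the labels. There were 2 IP samples and 2 input samples, and each IP had its own peak list, called against its own input. Whether a sample came from a single brain or from pooled brains is not given in the sources used here. The lists hold no reads, so that the depth behind a peak is unknown and no interval for counting error can be given.

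Notch signalling passes between neighbouring cells. A ligand of the Jagged or Delta-like family on one cell binds a Notch receptor on the next, the receptor is cut, and its intracellular domain enters the nucleus, where it acts with Rbpj and Mastermind proteins to switch on genes of the Hes and Hey families. In neural stem cells these repressors hold back neuronal differentiation, and the cells are marked by the intermediate filament proteins nestin (Nes) and vimentin (Vim). m6A is placed on adenosines of mRNA within a short consensus of which GGACT is the classical form, and is known to lie often in long exons and around stop codons. In whole brain of this age stem cells are few, and astrocytes, endothelium and mural cells also use several of these genes. In such bulk tissue, fewer cells of a type and less RNA per cell cannot be told apart.

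GGACT lay in a shared stretch of peaks of both replicates at 17 places in 5 of the genes, and 9 of these are shown with 10 bases on either side (GRCm38, the sequence of mm10, written 5′ to 3′ on the strand of the mRNA, with GGACT in capitals). They were picked as examples after the peaks were seen, with 1 or 2 for each of the 5 genes. The first lies in the last codons of Hes1, the next 2 in coding sequence of exon 9 of Dll1, and the others in the last exons of Notch1, Notch2 and Nes. Of the 17 places, 3 in Notch1 and 1 in Dll1 lie in intervals that also overlap an exon of the opposite strand. The strand of these peaks is uncertain. The second Notch1 sequence shown lies in such an interval.

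Hes1, chr16:30067388-30067412, plus strand: cgctcacttcGGACTccatgtggag
Dll1, chr17:15368541-15368565, minus strand: acaagaaggcGGACTttcacgggga
Dll1, chr17:15368481-15368505, minus strand: accccactgtGGACTataacctcgt
Notch1, chr2:26460543-26460567, minus strand: tgtcgcctgtGGACTccctcgagtc
Notch1, chr2:26458653-26458677, minus strand: gaggacagacGGACTgtcccggcct
Notch2, chr3:98148438-98148462, plus strand: cctgatcttaGGACTcattgatcca
Notch2, chr3:98150046-98150070, plus strand: ttcaggacccGGACTttaaccagcg
Nes, chr3:87977440-87977464, plus strand: acgagagtcaGGACTccaggaagtc
Nes, chr3:87978488-87978512, plus strand: tgccagagctGGACTggaactcgag

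Of the 9 genes, 8 had an exonic peak in replicate 1, 8 in replicate 2 and the same 8 in both replicates at overlapping positions. Hes5 had none in either list. Over all protein-coding genes, expressed in brain or not, an exonic peak was listed for 54.4% in replicate 1 and 49.5% in replicate 2, and a position shared by both for 45.5%. The 9 genes held 24 peaks in replicate 1, of which 18 overlapped a replicate 2 peak (75%, against 60.0% of all replicate 1 peaks). They held 19 peaks in replicate 2, of which 17 overlapped a replicate 1 peak (89.5%, against 77.0%). The bases that both lists had in common formed 19 shared intervals. Some wide peaks of a list covered 2 peaks of the other, so that not all 19 are independent. Nes had 5 intervals, Notch1 and Notch2 had 3 each, Notch3, Vim and Dll1 had 2 each, and Hes1 and Jag1 had 1 each. The median over all genes with at least 1 interval was 2. These counts take no account of mRNA length. Per kb of mRNA, the median over all genes with an interval was 0.583. Notch1 (0.316), Notch2 (0.286), Notch3 (0.250), Jag1 (0.178) and Dll1 (0.559) were below it. Nes (0.816), Vim (0.912) and Hes1 (0.681) were above it.

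**Figure D1:**
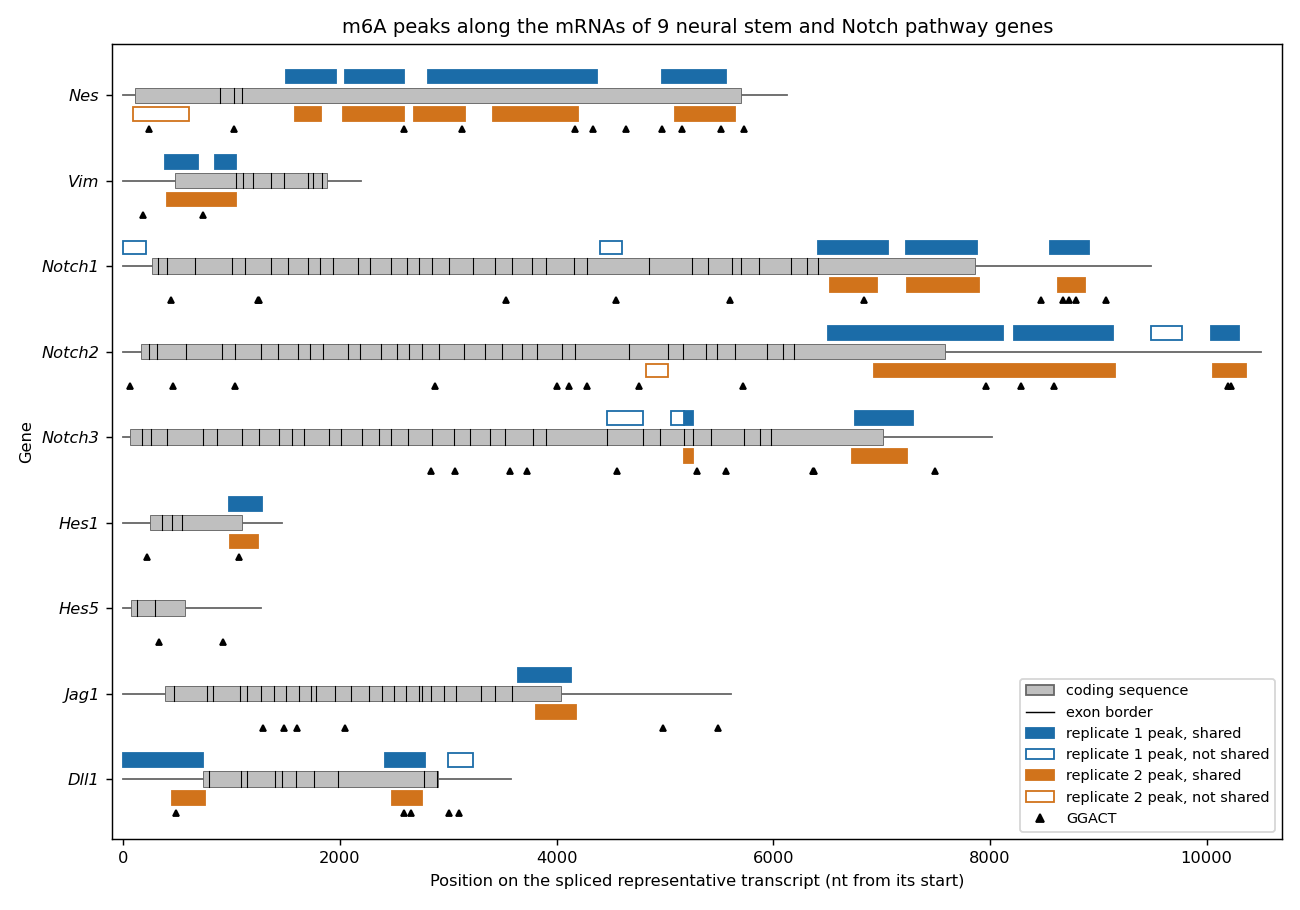
Peaks along the spliced mRNAs of the 9 genes, with the position in nt from the transcript start on the x axis and 1 gene per line. Grey boxes are coding sequence with exon borders as lines, blue bars replicate 1 and orange bars replicate 2 (filled where the peak overlaps a peak of the other replicate), and triangles GGACT. Peaks of Notch1 and Notch2 cluster in the long last exon, all Nes peaks except 1 of replicate 2 lie in exon 4, and Hes5 has none.

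Among the ligands, Jag1 had a peak of high enrichment in both replicates, and Dll1 had one that was high in replicate 1 only. They lay in different parts of the mRNA. Jag1 (chromosome 2, 137081456 to 137116644, minus strand, 26 exons) had 1 peak per replicate, across the stop codon in the last exon. Replicate 1 listed it at 137082937 to 137083428 with a fold enrichment of 5.93, and replicate 2 at 137082890 to 137083260 with 3.88. These were high values in both lists, at percentiles 95.4 and 94.3 of all peaks. The interval covered the codons from 1141 to the end of the reading frame at 1218 and 87 nt of the 3′ UTR, and the rest of the mRNA of 5612 nt held no peak.

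Dll1 (chromosome 17, 15367354 to 15376872, minus strand, 11 exons) had 3 peaks in replicate 1 and 2 in replicate 2. The strongest lay in exon 9, which is 799 nt long and is the longest exon of the mRNA (15368313 to 15368732 in replicate 1 and 15368395 to 15368667 in replicate 2). Its fold enrichment was 5.83 in replicate 1 and 2.57 in replicate 2, the widest gap among the matched peaks of the 9 genes. These values were at percentiles 95.1 and 66.6 of their lists. A further shared peak lay in the 5′ UTR up to the start codon, with 2.35 in replicate 1 and 2.36 in replicate 2. Exon sequence of A930024N18Rik, a lincRNA gene of the opposite strand, overlaps this peak, and the lists give no strand, so that the peak could not be assigned to either gene. A peak in the 3′ UTR (15367705 to 15367935, 3.87) was listed in replicate 1, and the nearest replicate 2 peak was 459 nt away.

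The 3 receptor mRNAs are long and have more than 30 exons each, and most of their shared signal lay in the last exon. This exon encodes the C-terminal part of the intracellular domain, which includes the PEST region that controls turnover of the protein. Notch1 (chromosome 2, 26457903 to 26516663, minus strand) had all 3 intervals in exon 34, which makes up 32.4% of the mRNA. The interval farthest upstream (codons 2087 to 2231) reached 4.71 in replicate 1 and 2.73 in replicate 2. The middle interval covered codons 2323 to 2531 and the stop codon, with 3.92 and 2.35. The last lay in the 3′ UTR, 894 nt after the stop codon (26458519 to 26458759), with 3.81 and 2.40. At this place an exon of the transcript 0610009E02Rik of the opposite strand overlaps Notch1, so that its strand is also uncertain. All 3 Notch1 peaks were higher in replicate 1, by 1.59 to 1.73 times. Replicate 1 alone listed a peak in exon 25 (2.33) and a peak at the 5′ end of the mRNA (3.11).

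Notch2 (chromosome 3, 98013527 to 98150361, plus strand) carried the strongest receptor signal. All 3 intervals lay in exon 34, 41% of an mRNA of 10500 nt. A replicate 2 peak of 2224 nt (98146788 to 98149011, fold enrichment 3.82) ran from codon 2256 across the stop codon into the 3′ UTR. In replicate 1 the same stretch was called as 2 peaks, at 98146365 to 98147985 (3.91) and at 98148086 to 98149000 (5.34). A further interval lay 2602 nt after the stop codon, close to the end of the mRNA, with 2.26 in replicate 1 and 3.23 in replicate 2. Its rank differed between the lists, at percentile 29.9 in replicate 1 and 85.3 in replicate 2. Peaks listed once were found in the 3′ UTR in replicate 1 (2.68) and in exon 26 in replicate 2 (2.19).

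Notch3 (chromosome 17, 32120820 to 32166852, minus strand) had lower values. Its interval in the last exon covered codons 2232 to 2318 and the stop codon, and its enrichment was 3.45 and 2.21 in replicates 1 and 2. The other interval began at 32137701 in both lists and held exon 28, an exon of 85 nt, together with neighbouring intron sequence (2.50 and 2.23). It was the only one of the 19 intervals in an exon under 400 nt. Replicate 1 listed peaks in exons 25 and 27 besides (2.02 and 2.36), and the former also overlaps an exon of Gm17276 on the opposite strand. Each of the 3 receptors thus had 1 interval across its stop codon. Of all 9306 genes with an interval placed on the mRNA, 52.0% had such an interval.

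The 2 Hes genes, which encode repressors of the same family, differed. Hes1 (chromosome 16, 30064384 to 30067796, plus strand) had 1 peak per replicate, across the stop codon in exon 4. The replicate 1 peak (30067301 to 30067609) had a fold enrichment of 3.58 and the replicate 2 peak (30067314 to 30067572) one of 3.23. Hes5 (chromosome 4, 154960923 to 154962371, plus strand) was without a peak, although its mRNA of 1273 nt is close in length to that of Hes1 (1468 nt) and also has a long last exon (980 nt and 925 nt). Both mRNAs contain GGACT at 2 places. The sites of Hes5 lie in the coding sequence and the 3′ UTR of exon 3:

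Hes5, chr4:154961419-154961443, plus strand: gcctgcaccaGGACTacagcgaggg
Hes5, chr4:154962007-154962031, plus strand: agcccgtagaGGACTttcttcaggg

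Without read counts, a Hes5 mRNA with little m6A cannot be told apart from an mRNA with too little coverage for a peak.

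By the lower value of both replicates in the best interval of a gene, the filament genes Nes (4.93) and Vim (1.22) were the highest and the lowest of the 8 genes with an interval. In replicate 1 alone, peaks of Jag1, Dll1 and Notch2 were above the best Nes peak. In Nes (chromosome 3, 87971078 to 87980451, plus strand) all 5 intervals lay in the coding sequence of exon 4, an exon of 5031 nt that encodes the long tail of nestin and makes up 82.1% of the mRNA. The peaks of replicate 1 had fold enrichments of 4.01, 5.15, 4.93 and 3.06 in the order of the mRNA, and the matching peaks of replicate 2 had 3.02, 4.06, 5.45 and 4.00. The strongest peak therefore differed, with that at codons 648 to 826 first in replicate 1 and that at codons 1103 to 1362 first in replicate 2. The third peak of replicate 1 was 1555 nt wide (87977141 to 87978695) and also met a further replicate 2 peak of 3.30. Ranked by the lower of both values of its best interval, Nes was at percentile 98.8 of the 9948 genes with an interval, and 38.6% of its mRNA was covered against a median of 18.2%. The rank takes the best interval of a gene, which favours genes with many intervals, and Nes had 5.

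Besides these, replicate 2 listed a Nes peak at the start codon in exon 1 (87971187 to 87971695, fold enrichment 3.59). It ranked at percentile 91.2 of that list, and the nearest replicate 1 peak was 4135 nt away on the genome. No interval of Nes covered the stop codon, and the one closest to it was centred at -374 nt from it.

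Vim (chromosome 2, 13573927 to 13582826, plus strand) had the lowest values of the 8 genes with peaks. Its peaks lay in exon 1, at 13574336 to 13574642 and 13574795 to 13575053 in replicate 1 (fold enrichments 1.48 and 1.39). In replicate 2 a single peak from 13574353 to 13574994 (1.22) spanned both. All 3 values were among the lowest of their lists, at percentiles 4.42, 2.39 and 1.08, while no other shared peak of the 9 genes was under percentile 29.9. The first interval covered the start codon and codons 1 to 71, and the second covered codons 122 to 188. At a fold enrichment of at least 2 Vim had no shared peak, and 7 of the 9 genes remained.

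**Figure D2:**
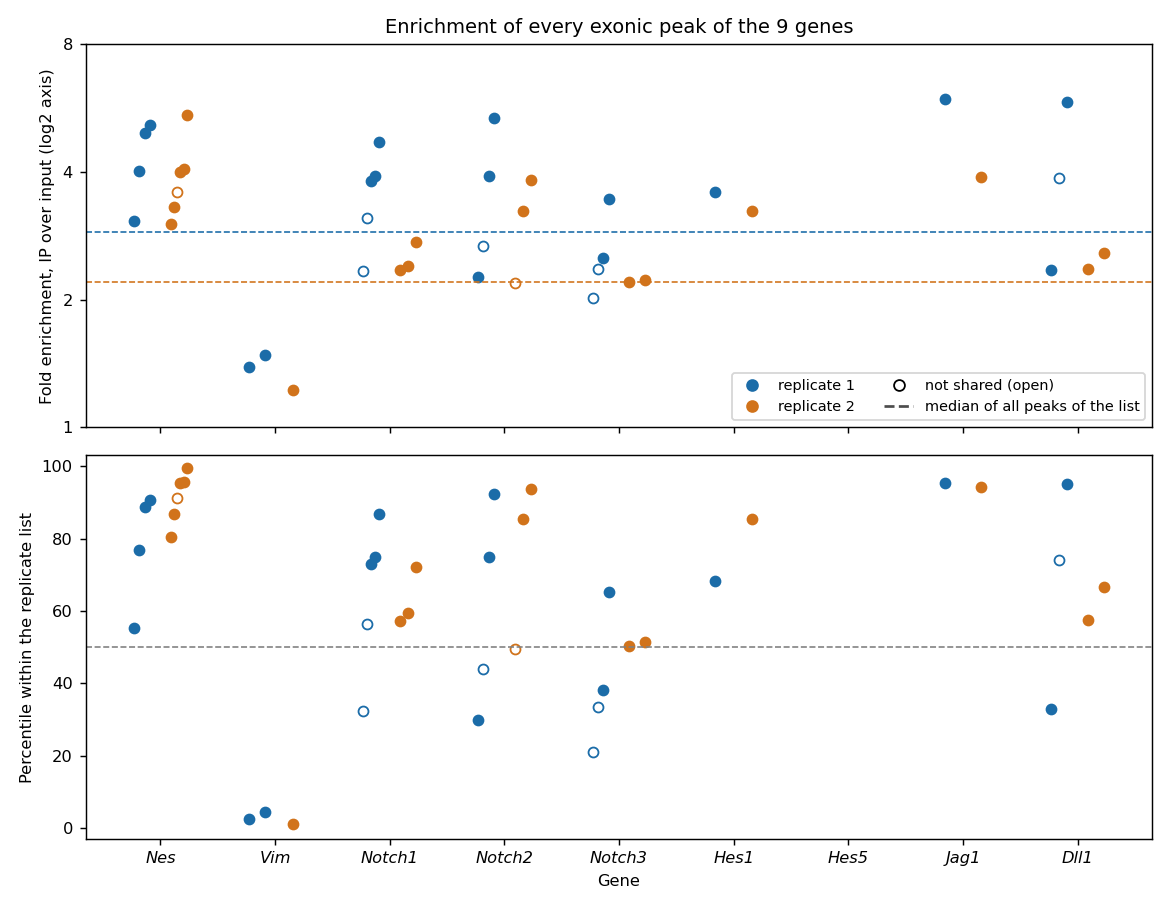
Every exonic peak of the 9 genes as a point, by gene on the x axis, blue for replicate 1 and orange for replicate 2, open where the other replicate had no overlapping peak. The upper panel gives the fold enrichment on a log2 axis with the median of each whole list dashed (2.88 and 2.20), and the lower panel the percentile within the list. Vim lies at the bottom of both panels, Nes above the median of its list at every peak, and Hes5 has no point.

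Fold enrichment was then compared between the replicates over the 16 pairs of peaks that were best partners of each other. It was higher in replicate 1 in 12 of the 16 (75%), as in 77.9% of the 22457 pairs of the whole lists. The median ratio of replicate 1 over replicate 2 was 1.24 for the 9 genes and 1.29 for all pairs, so that the 9 genes were close to the whole lists. The 4 exceptions were 2 pairs of Nes and 1 each of Notch2 and Dll1. After each value was replaced by its percentile within its own list, 7 of the 16 pairs were higher in replicate 1 (43.8%, against 48.7% of all pairs). The ratio ranged from 0.702 for the last peak of Notch2 to 2.27 for exon 9 of Dll1. Only 2 replicates stand behind each ratio, and no test of a difference between genes was made. The starts of matched peaks differed by a median of 45.5 nt and the ends by 80.0 nt, against 35.0 nt and 34.0 nt over all pairs.

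**Figure D3:**
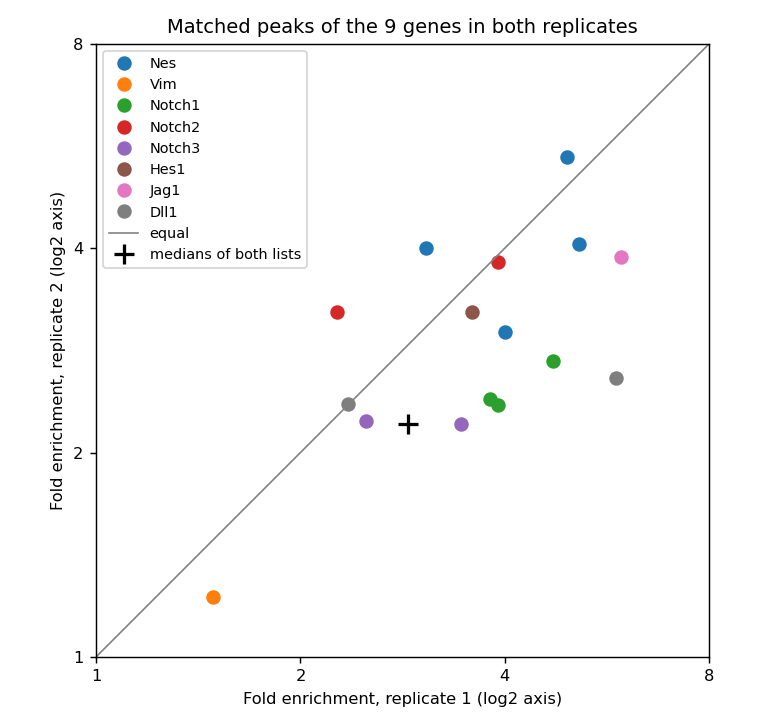
Fold enrichment of the 16 matched peaks, replicate 1 on the x axis and replicate 2 on the y axis, both on log2 axes, with 1 colour per gene. The line marks equal values and the cross the medians of both lists. Of the 16 points 12 lie below the line, and the pair of exon 9 of Dll1 (5.83 and 2.57) lies farthest from it.

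The position of the 19 intervals was compared with that of all 20828 intervals that could be placed on a single representative mRNA. By midpoint, 14 of the 19 lay in coding sequence (73.7%, against 61.8%), 4 in 3′ UTRs (21.1%, against 28.0%) and 1, that of Dll1, in a 5′ UTR (5.26%, against 10.2%). The midpoint was at most 200 nt from the stop codon in 4 intervals (21.1%, against 22.5%), which belonged to Notch2, Notch3, Hes1 and Jag1. With a limit of 400 nt, 7 of the 19 were near it (36.8%, against 35.1%), as were 7 when any base within 200 nt counted (36.8%, against 34.2%). Of the replicate 1 peaks on their own, 12.5% had their midpoint within 200 nt, a value without a share over all replicate 1 peaks beside it. The stop codon itself was covered by 5 of the 19 (26.3%, against 23.2% of all placed intervals). The shares of the 19 intervals around the stop codon are near those of the whole series.

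A larger share of the 19 intervals than of all placed intervals lay in long and in last exons. In exons of at least 400 nt lay 18 of the 19 intervals (94.7%), against 64.8% of all placed intervals, and 14 lay in the last exon (73.7%, against 46.1%). Of the peaks of a single list, 83.3% (replicate 1) and 89.5% (replicate 2) lay in exons of at least 400 nt. No share over all peaks of a list stands beside these values. Exons of at least 400 nt make up 52.0% of the pooled bases of the 9 mRNAs and last exons 40.2%, compared with 64.9% and 52.7% over all genes with a placed interval. The genes differ in this. In Nes, which holds 5 of the 19 intervals, these exons make up 96.8% and 82.1% of the mRNA, and in Notch3 32.5% and 25.5%. The part of exon structure in the shares of intervals was not tested. In Notch1, 3 of the 34 exons reach 400 nt, and all 3 intervals were found in 1 of them. The intervals of a gene share their mRNA, and Nes and the receptors contribute 13 of the 19, so that these shares are descriptions of the genes.

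**Figure D4:**
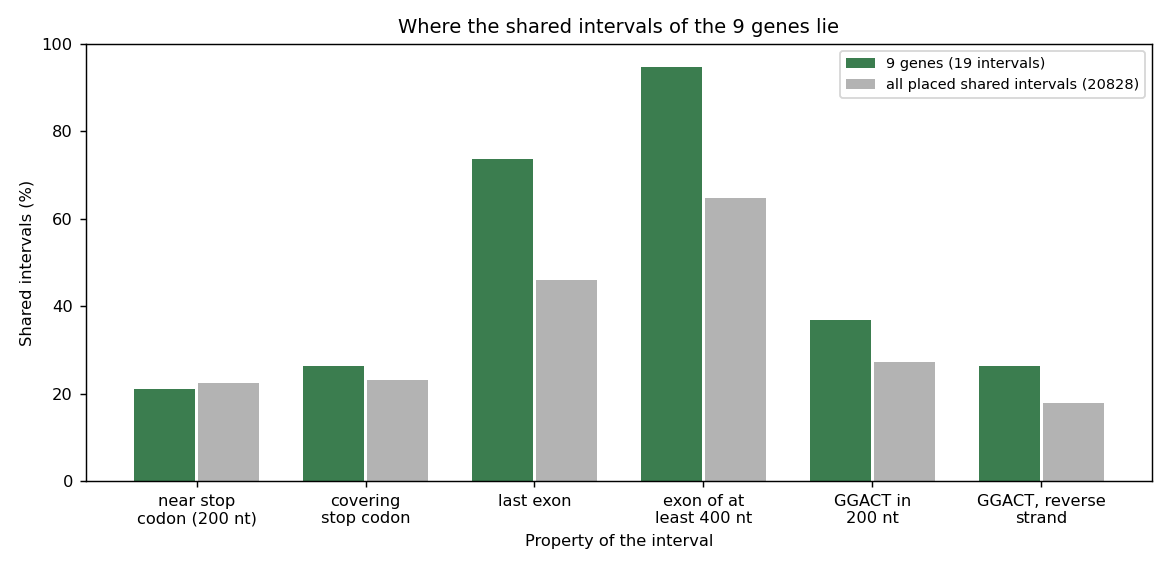
Share of the shared intervals (y axis, in percent) with each property on the x axis, for the 19 intervals of the 9 genes in green and all 20828 placed intervals in grey. The bars for the last exon (73.7% and 46.1%) and for exons of at least 400 nt (94.7% and 64.8%) differ most, and those around the stop codon are close.

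GGACT was searched on the strand of the mRNA in 200 nt of spliced sequence around each midpoint. It was present in 7 of the 19 windows (36.8%), against 27.2% of all placed intervals in windows of the same length. On the opposite strand it was present in 5 (26.3%), against 17.8%. The shorter GGAC, which every GGACT contains, was present in 16 (84.2%, against 69.6%). The windows of the 9 genes and of all intervals had median GC contents of 54.0% and 54.5%. None of these shares differs from the whole series by more than a few of the 19 intervals. The share depends on the stretch searched. Over all exonic bases of each interval GGACT was present in 11 of the 19 (57.9%), and in windows of 100 nt in 21.1%. Neither value has a share over all intervals beside it. The 200 nt windows of Nes all lacked GGACT, although some Nes intervals held it farther from their midpoint. The window at exon 28 of Notch3 held a site of exon 29 that lay under no peak.

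Over the whole mRNAs the 9 genes held GGACT at 64 places, of which 17 lay in a shared interval (26.6%). The 17 include the sites in intervals of uncertain strand in Notch1 and Dll1. The intervals covered 17.1% of the bases of these mRNAs. Over all protein-coding genes with an interval the same values were 28.8% of the sites and 19.8% of the bases. The genes differed widely. In Dll1 all 5 sites lay under a peak of replicate 1 and 3 under peaks of both, including both sites in exon 9 printed above. Notch2 had 5 of 14 sites in shared intervals, Notch1 and Nes had 4 of 12 and 4 of 11, and Hes1 had 1 of 2. In Jag1, by contrast, none of 6 sites lay in a peak, although its peak at the stop codon was among the strongest of the 9 genes. Notch3 had none of 10 sites in a shared interval and Vim none of 2.

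Between the Notch paralogs, 2 pairs of GGACT sites with closely similar surroundings were set side by side. They were chosen after their peaks were seen, as those with the most identical bases (20 of the 25) among all pairs of sites compared between the receptors, between Hes1 and Hes5 and between Jag1 and Dll1. The first pair lies in the last exon of Notch1 and of Notch3. The site of Notch1, printed above as the fourth sequence, lay under peaks of both replicates, and that of Notch3 under none. The Notch3 stretch also holds a second GGACT, left in lower case below, which lay under no peak either. The second pair lies in exon 26 of Notch2, where no peak covered the site, and in exon 25 of Notch3, where a replicate 1 peak of 2.02 did. That peak was not shared and ranked at percentile 21.1 of its list. It also overlaps an exon of Gm17276 on the opposite strand, so that its strand is uncertain. The partners are shown for comparison:

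Notch3, chr17:32122454-32122478, minus strand: tgtcaccggtGGACTctctggactc
Notch2, chr3:98137349-98137373, plus strand: gggatgggctGGACTgcgcttcgga
Notch3, chr17:32141445-32141469, minus strand: gggatgggctGGACTgtgccagcga

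The replicate 2 peak in exon 26 of Notch2 began at 98137429, after this site.

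The other genes of the pathway were read from a list of 47. A shared interval was found in 39 (83.0%), with a median of 2, and 4 had no peak in either list. Of the other ligands, Dlk2 had 3 intervals, Jag2, Dll4 and Dlk1 had 2 each, and Dll3 and Dner had none. The fourth receptor, Notch4, had 1. Among the effectors Hes3, Hes6 and Heyl had 2 intervals each, Hey1 and Hey2 had 1 each, and Hes7 had none. High numbers were found in nuclear cofactors of the pathway, with 13 intervals in Spen, which encodes a corepressor that acts with Rbpj, and 6 in the acetyltransferase gene Ep300. By the lower of the values of both replicates, the highest intervals were those of Fbxw7, whose product marks the cleaved receptor for degradation (5.65 in replicate 1 and 5.13 in replicate 2), Ep300 (5.28 and 4.31) and Maml2, a Mastermind gene (6.82 and 4.27). At most 200 nt from the stop codon lay 13.5% of the 111 placed intervals of this list (22.5% in the whole series), and 68.5% lay in exons of at least 400 nt (64.8%). The intervals of a gene share their mRNA, and genes with many intervals, such as Spen with 13, weigh more in these shares.

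Of 31 further genes of neural stem and progenitor cells 26 had a shared interval (83.9%), and 2 had no peak in either list. The list holds genes that are also expressed in mature glia, such as Gfap and Slc1a3. Pax6, a transcription factor of radial glia, had the most intervals with 5, followed by Gfap, Slc1a3, Ptprz1, Nfia and Nfib with 4 each. By the lower of both values, the highest intervals were found in Egfr, a growth factor receptor (6.38 and 4.91), Rest, a repressor of neuronal genes (7.88 and 4.63), and Nfib (5.31 and 4.55). Near the stop codon lay 22% of the 50 placed intervals of these genes, and 76% lay in long exons. The shares of genes with an interval, 83.0% and 83.9%, are read against 45.5% of all protein-coding genes, a background that includes genes without expression in brain. Nes, with 4.93 as the lower value of the best of its 5 intervals, was by this measure above all genes of both lists except Fbxw7.

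The profile of each gene with at least 2 intervals was compared with those of the 63 listed genes that could be compared. Profiles were taken along the mRNA over 30 bins of the 5′ UTR, coding sequence and 3′ UTR. The closest profiles were those of Bend6 for Notch3 (Pearson's r = 0.96), Adam17 for Notch1 (0.84), Numbl for Notch2 (0.82), Id2 for Vim (0.73), Hey1 for Nes (0.66) and Neurl1a for Dll1 (0.63). These are descriptions over bins of a single pair of lists, and several of the partners had only 1 interval.

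Peaks were also listed in the introns of 1 of the 9 genes, outside the rule of exons. Notch3 had 5 intronic peaks in replicate 1 and 2 in replicate 2. Both replicate 2 peaks overlapped one of replicate 1, in intron 31 (fold enrichment 4.93 in replicate 1 and 3.68 in replicate 2) and in intron 2 (5.13 and 3.32). Within each replicate these values were higher than those of any exonic Notch3 peak. Of all protein-coding genes, 8.24% had an intronic peak in either replicate and 0.841% had more than 3 in replicate 1.

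The labelled tissue was checked by whether peaks were listed in genes of brain cell types. A shared peak was present in 5 of 6 neuronal genes (not in Gad1) and in all 4 oligodendrocyte, 4 astrocyte, 3 microglia and 4 vascular genes, and in 1 of 5 genes of other organs (Myh6). Of all protein-coding genes, expressed in brain or not, 45.5% had a shared peak. A peak list shows neither the level of an mRNA nor the share of a cell type.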

How the data were processed

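m6A-seq was measured in 2 IP and 2 input samples of mouse whole brain. According to the study's methods, reads were trimmed by the authors with Cutadapt and Trimmomatic, aligned to mm10 with TopHat (TopHat2 2.0.9 in the submitters' processing notes, another version in the methods), and kept where uniquely mapped. Peaks were called with MACS2 for each IP against its own input, without a fragment model and with all duplicates kept. The authors deposited the borders of each peak and its fold enrichment, which is a ratio on a linear scale. Kept duplicates can raise it. The input samples have no file of their own here.

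The 9 genes, the lists and the rules were chosen with earlier results of these data known. A peak counted for a gene when it overlapped an exon of any GENCODE M21 transcript by at least 1 bp. Borders were used with both ends counted, which makes the shortest peak 200 nt. Shared intervals are bases common to peaks of both lists. Positions refer to the coding transcript with the longest coding sequence. Intervals on several representative mRNAs were left out of the background. All genes of the set were described, and of the other lists the 3 genes with the most intervals, the 3 with the highest value of the lower enrichment, and the ligand, receptor, Hes and Hey genes. For a gene with at least 2 intervals the listed gene with the most similar profile was also named. A result that this rule would name is not reported here. No statistical test was made, because 2 replicates of 1 group and lists without counts allow none. The functions were tested on simulated data. Python 3.11.15, pandas 2.3.3, numpy 2.4.6 and scipy 1.17.1 were used.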

Additional observations from a re-analysis of the deposited data

Results flagged for a closer look

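Notch3 had 5 peaks within introns in replicate 1. They were set aside for a closer look because they lie outside the exons that the counts above rest on and exceed a set limit of 3. This limit is a rule for flagging a count and no statistical test. Their fold enrichments ranged from 3.01 to 5.36, and 3 of the 5 lay in intron 31, which is 7822 nt long. Replicate 2 had a peak at 2 of these places. No input signal could be examined here, and the strand of these peaks is not given.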

How the results depend on the processing

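Over 44 alternative values for 7 results, 41 stayed within the range of the reported value (within 1.5 times for counts, within the 95% Wilson interval for shares), 3 moved and 0 reversed. The Wilson intervals are wide and treat the intervals of a gene as independent, which they are not. For GGACT the range was 19.1% to 59.0%, so that 21.1% (windows of 100 nt) and 57.9% (whole intervals) both stayed within it. For the shares, staying within the range therefore says little about stability. The number of shared intervals fell from 19 to 11 when midpoints had to lie within 100 bp. The share of pairs with higher enrichment in replicate 1 went from 75% to 43.8% on percentiles within each list, and the share of windows with the motif from 36.8% to 84.2% with GGAC in place of GGACT, which is contained in more sequences by construction. With Hes5 without a peak throughout, 7 genes remained when peaks had to overlap by at least 50% or when enrichment had to reach 2 (both without Vim), and 6 with midpoints within 100 bp (without Vim and Jag1). With the peaks of a single list, 19 (replicate 2) or 24 (replicate 1) peaks were counted in 8 genes, 15.8% or 12.5% of them near the stop codon. Neither share has one over all peaks of its list beside it. No paired analysis was possible because the input samples have no values of their own here and the IP samples form a single group. The depth is unknown, so that a missing peak sets no limit on m6A.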
